A study of Mus musculus with 44 samples.

Results

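The small leucine-rich proteoglycans (SLRPs) are secreted proteins of the extracellular matrix, and 10 of their genes were followed here through bleomycin-induced fibrosis of mouse skin and its recovery. The genes Dcn, Bgn, Aspn, Lum, Fmod, Prelp, Kera, Omd, Ogn and Podn were chosen by name from the 43411 genes of the table. RNA-seq was performed on back skin of 44 female mice of the C57Bl/6 strain with WT genotype, each library being made from 1 mouse. In the bleomycin groups, 100 uL of bleomycin, a drug that breaks DNA, was injected under the back skin every day from 8 weeks of age. The study's methods give its concentration as 1 U/mL, and a figure legend in the supplement of the study gives a lower one. The saline group had 10 mice, bleomycin was given for 2 weeks to 10 mice and for 4 weeks to 10 mice, and the recovery groups were left untreated for 6 weeks (6 mice) or 10 weeks (8 mice) after 4 weeks of bleomycin. The labels give no time point for the saline mice, so age and recovery cannot be told apart in the comparisons of the recovery groups with saline.

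SLRPs carry a central run of leucine-rich repeats that binds collagen, and most carry chains of chondroitin, dermatan or keratan sulfate. Decorin (Dcn), biglycan (Bgn) and asporin (Aspn) form the first class, and decorin and biglycan also bind TGF-beta. Lumican (Lum), fibromodulin (Fmod), PRELP (Prelp), keratocan (Kera) and osteomodulin (Omd) form the keratan sulfate class, osteoglycin (Ogn, also called mimecan) belongs to a further class, and podocan (Podn) to a non-canonical one. In skin, decorin and lumican control the width and spacing of collagen fibrils, and fibromodulin acts on fibril assembly and on collagen crosslinking.

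Most of the 10 genes lie in 3 small clusters of the mouse genome (GRCm38, GENCODE vM21). Dcn (chr10:97479609-97518143), Lum (chr10:97565128-97572703) and Kera (chr10:97606879-97613692) follow each other on the plus strand of chromosome 10. Aspn (chr13:49544443-49567565), Omd (chr13:49582462-49592822) and Ogn (chr13:49608046-49624501) follow each other on the plus strand of chromosome 13, all within Cenpp on the opposite strand. Prelp (chr1:133910304-133921414, minus strand) and Fmod (chr1:134037254-134048277, plus strand) are neighbours on chromosome 1. Bgn (chrX:73483602-73495933, plus strand) and Podn (chr4:108014791-108096445, minus strand) stand alone. Prelp overlaps the antisense gene Gm15851, and Podn overlaps Scp2 on its own strand. The libraries were stranded, but whether strand was used in counting is not given in the sources used here, so reads shared by these overlapping genes cannot be told apart.

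The promoters of the 5 genes that were higher at 6 weeks of recovery, and of Ogn as the remaining gene of the chromosome 13 cluster, are shown as the 250 bases before the RefSeq start (GRCm38.p6), 5′ to 3′ on the strand of the gene, because results below turn on these 6 genes. Capitals mark matches on either strand to TATAAA, the core promoter sequence bound by TBP, to CCAAT, the sequence bound by NF-Y, or to GGGCGG, the sequence bound by Sp1. The AP-1 sequence TGANTCA and the SMAD sequence GTCTAGAC were also searched and had no match in the 8 genes with a promoter.
Prelp promoter, chr1:133921402-133921651, minus strand: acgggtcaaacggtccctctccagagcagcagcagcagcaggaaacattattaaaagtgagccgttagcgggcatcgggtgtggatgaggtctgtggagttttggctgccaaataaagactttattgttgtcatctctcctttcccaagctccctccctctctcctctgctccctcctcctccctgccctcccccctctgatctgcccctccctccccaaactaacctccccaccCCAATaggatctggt
Fmod promoter, chr1:134037004-134037253, plus strand: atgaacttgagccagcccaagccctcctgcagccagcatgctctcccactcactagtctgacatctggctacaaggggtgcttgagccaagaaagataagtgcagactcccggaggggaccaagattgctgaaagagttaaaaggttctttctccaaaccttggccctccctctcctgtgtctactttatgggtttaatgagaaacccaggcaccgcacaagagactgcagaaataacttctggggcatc
Aspn promoter, chr13:49544193-49544442, plus strand: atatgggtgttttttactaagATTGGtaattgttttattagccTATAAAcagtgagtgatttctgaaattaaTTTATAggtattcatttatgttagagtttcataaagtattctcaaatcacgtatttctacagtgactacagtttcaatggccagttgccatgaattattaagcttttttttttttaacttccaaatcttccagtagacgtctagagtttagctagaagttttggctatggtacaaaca
Omd promoter, chr13:49582212-49582461, plus strand: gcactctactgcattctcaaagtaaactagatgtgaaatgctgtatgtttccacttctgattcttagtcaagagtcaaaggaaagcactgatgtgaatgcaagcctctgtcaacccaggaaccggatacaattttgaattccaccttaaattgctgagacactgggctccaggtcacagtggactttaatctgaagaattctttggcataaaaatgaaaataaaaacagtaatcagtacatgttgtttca
Ogn promoter, chr13:49607765-49608014, plus strand: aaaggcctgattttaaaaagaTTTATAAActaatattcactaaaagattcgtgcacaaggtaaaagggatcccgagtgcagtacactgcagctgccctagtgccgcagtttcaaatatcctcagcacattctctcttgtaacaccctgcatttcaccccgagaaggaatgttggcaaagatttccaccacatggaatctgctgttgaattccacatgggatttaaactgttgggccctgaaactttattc
Bgn promoter, chrX:73483351-73483600, plus strand: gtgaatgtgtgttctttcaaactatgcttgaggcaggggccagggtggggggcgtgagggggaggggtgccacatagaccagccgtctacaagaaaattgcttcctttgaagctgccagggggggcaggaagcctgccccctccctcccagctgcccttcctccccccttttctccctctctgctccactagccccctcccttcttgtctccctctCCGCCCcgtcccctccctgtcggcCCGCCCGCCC
RefSeq gave a promoter for 8 of the 10 genes, and Dcn and Lum had none in that table. The base composition ran from 30.0% G and C in Aspn to 78.0% at the first of 2 starts of Podn. TATAAA was found in 2 of the 8 genes, Aspn and Ogn, and in 12.4% of all 32851 RefSeq promoters cut to the same length. Matches in the 8 were counted by gene, at any start, and those in the background by promoter, so these shares differ in unit. In Aspn the matches began at positions -207 and -178 from the start, and in Ogn the matches on both strands overlapped between -229 and -222. CCAAT was found in 3 of the 8 genes, Aspn, Prelp and Kera, and in 33.8% of all promoters, and in Prelp it lay from -15 to -11. GGGCGG was found in 2 of the 8 genes, Bgn and Podn, and in 32.7% of all promoters, and 2 of its 3 matches in Bgn overlapped. TGANTCA was held by 6.75% and GTCTAGAC by 0.167% of all promoters.

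The reads recovered from the normalized counts numbered 8509094 to 15285577 (median 11310008). Saline mouse 1 (r = 0.942) and 2-week bleomycin mouse 2 (r = 0.938) correlated least with their own groups, and values that turn on them are given with and without them. All 10 genes were above the limit that a count of 0 allows (3 reads) in 44 of 44 mice, and they were among 17037 genes with a mean above 3 normalized counts. Keratinocyte, skeletal muscle, adipocyte and hair follicle markers were all detected, as in full-thickness skin. The summed level of 5 hair follicle markers varied most, from 1876 to 196400 normalized counts within the saline group, and its medians were 22.3 and 44.1 in the 2- and 4-week bleomycin groups. The summed level of 7 fibroblast markers (Clec3b, Dpp4, Mfap5, Pdgfra, Pdgfrb, Pi16 and Thy1) ran from 7312 to 15310 in saline, 3403 to 7441 at 2 weeks, 4615 to 6713 at 4 weeks, 11740 to 15250 at 6 weeks of recovery and 9020 to 14890 at 10 weeks of recovery. Single markers did not all follow this sum. Pdgfra had 1312 ± 207 normalized counts in saline, 639 ± 62.7 at 6 weeks and 682 ± 83.0 at 10 weeks of recovery (SD). The summed level of 4 tendon markers (Mkx, Scx, Thbs4 and Tnmd) ran from 760 to 1342 in saline. It ran from 290 to 613 at 2 weeks and 418 to 637 at 4 weeks of bleomycin. In recovery it ran from 815 to 1334 at 6 weeks and 694 to 1092 at 10 weeks. Its part in the SLRP differences was not tested. Of 4 cartilage and bone markers, Ibsp and Bglap were at or under the limit of 3 reads in 44 of 44 mice. Acan, the cartilage proteoglycan aggrecan, was above it in 10 of 10 saline mice, with up to 80.0 normalized counts, and Col2a1, cartilage collagen, was above it in 10 of 10 mice of each bleomycin group, with means of 18.5 and 26.7 against 2.93 in saline. The sum of the 4 ran from 4.01 to 83.7 over all mice.

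The levels of the SLRP genes in skin spanned more than 100-fold, with decorin at the top in each group. Per kb of exon, saline skin held 4223 ± 873 normalized counts of Dcn, 2027 ± 431 of Lum and 844 ± 172 of Bgn (SD, n = 10). Dcn exceeded Lum in 43 of 44 mice, and Lum exceeded Bgn in 44 of 44. Ogn (498 ± 115 per kb), Aspn (458 ± 123) and Prelp (395 ± 98.6) followed in saline and could not be ordered, since Ogn exceeded Aspn in 7 of 10 saline mice and Aspn exceeded Prelp in 5 of 10. Fmod (183 ± 69.0 per kb) and Podn (116 ± 33.0 per kb) came next in saline, with Fmod above Podn in 9 of 10 mice. Omd (31.4 ± 5.90 per kb) and Kera (29.9 ± 11.3 per kb) were lowest and could not be ordered in saline, where Omd was above Kera in 5 of 10 mice. This last pair took a fixed order under treatment, because Kera was above Omd in 10 of 10 mice at both bleomycin time points and Omd was above Kera in 6 of 6 and 8 of 8 mice of the recovery groups.

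The composition of the 10 genes shifted away from decorin. Dcn made up 47.7% ± 2.56 of their summed level per kb in saline, 42.01% ± 3.68 at 2 weeks and 34.9% ± 6.79 at 4 weeks of bleomycin (SD, n = 10 each), then 35.3% ± 3.35 (n = 6) and 41.4% ± 3.03 (n = 8) in recovery. Lum had 23.0% ± 2.55 in saline and 31.8% ± 3.19 at 2 weeks, and Bgn had 9.99% ± 3.16 in saline and 14.1% ± 4.95 at 4 weeks. Aspn, Prelp and Ogn held 8.90%, 7.37% and 6.38% of the sum at 6 weeks of recovery against 5.14%, 4.52% and 5.61% in saline. These shares are descriptions, with no test.

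**Figure D1:**
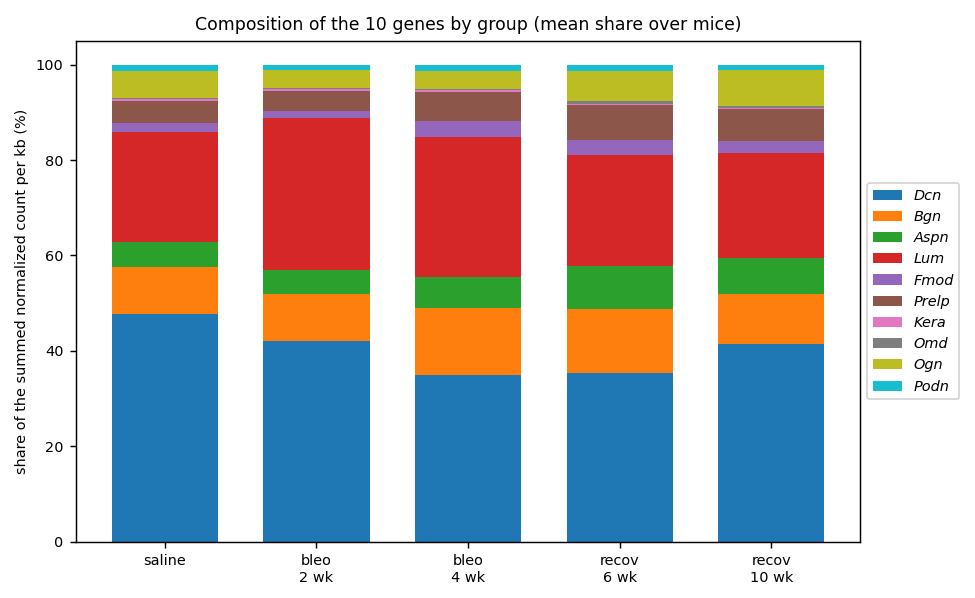
Stacked bars give the mean share of each of the 10 genes in their summed normalized count per kb (y axis, %) in each group (x axis, n = 10, 10, 10, 6 and 8 mice). The lowest segment, Dcn, shrinks from 47.7% in saline to 34.9% at 4 weeks of bleomycin and returns to 41.4% at 10 weeks of recovery.

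At 2 weeks of bleomycin, 3 SLRP genes were lower than in saline and none was higher. Omd, a keratan sulfate SLRP best known from bone, fell furthest, and Fmod and Ogn fell to about the same extent as each other. A gene was called changed where the adjusted p was below 0.05 (limma, Benjamini-Hochberg over all 17037 genes) and the fold change was above 1.5. By this rule 0 of 10 genes were called higher, against 9.3% of all genes, and 3 of 10 lower, against 7.43%.

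Omd had 52.7, 71.5 and 96.1 normalized counts (lowest, median and highest mouse) in saline and 10.4, 29.9 and 49.7 at 2 weeks. Each of the 10 treated mice was thus below each of the 10 saline mice, a separation downward that 1.33% of all genes showed. The log2 fold change of Omd was -1.28 ± 0.18 (SE, adjusted p = 1.76e-07), a level of 0.411 of saline. Ogn had 583, 1337 and 1637 normalized counts in saline and 250, 821 and 1233 at 2 weeks. The groups overlapped, with 2 of 10 treated mice below the lowest saline mouse, and the log2 fold change was -0.72 ± 0.18 (adjusted p = 0.00136). Without 2-week mouse 2 it was -0.55, under the fold threshold (adjusted p = 0.00255). In bulk skin, fewer cells of a type and less RNA per cell cannot be told apart.

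Fmod, which competes with lumican for a binding site on collagen, had 202, 658 and 860 normalized counts in saline and 155, 342 and 830 at 2 weeks. The 2-week mice fell into a low set, mice 1, 2, 5, 6 and 7 at 251 or lower, and a set at 433 to 830. Of the 10 mice, 3 were below the saline range, and the log2 fold change was -0.72 ± 0.28 (adjusted p = 0.0393). This call was fragile. It was lost when saline mouse 5, 6, 7, 8, 9 or 10 or 2-week mouse 1, 2, 5, 6 or 7 was left out (log2 fold change -0.60 to -0.70, adjusted p = 0.0534 to 0.089), and with edgeR (-0.60, adjusted p = 0.0787) and DESeq2 (-0.62, adjusted p = 0.0535).

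The other SLRP genes at 2 weeks stayed short of a call. Podn (log2 fold change -0.51 ± 0.16, adjusted p = 0.00988) and Dcn (-0.35 ± 0.14, adjusted p = 0.0466) passed the p threshold without reaching 1.5-fold, and Podn was called without saline mouse 1 (-0.62) or 2-week mouse 9 (-0.59). Lum was the single gene with a positive difference, at 0.30 ± 0.12 (adjusted p = 0.0531). Bgn fell into a high and a low set of 2-week mice, with 5 of 10 above the highest saline mouse (6221 normalized counts) and the others at 3331 or lower. The mean difference of Bgn was -0.25 ± 0.22 (adjusted p = 0.398). Aspn (-0.20), Prelp (-0.37) and Kera (-0.03) did not pass either threshold.

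**Figure D2:**
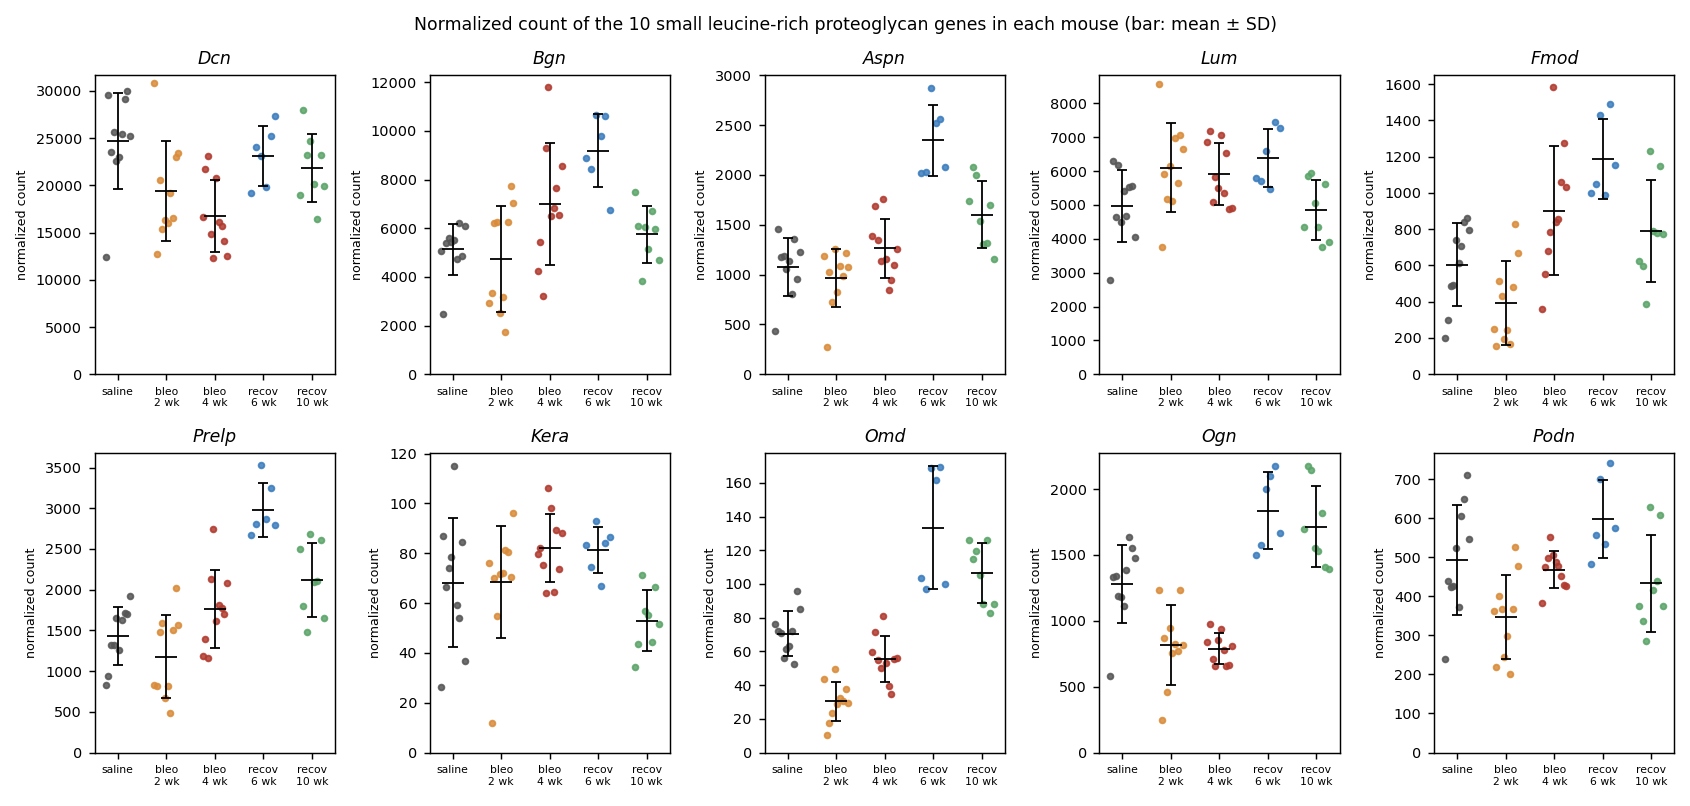
Each point is the normalized count (y axis, from 0) of one gene in one mouse, in panels by gene, for saline, 2 and 4 weeks of bleomycin and 6 and 10 weeks of recovery (x axis), with the mean and SD as a bar. Omd at 2 weeks lies below the saline points, and Bgn, Aspn, Fmod, Prelp and Omd at 6 weeks of recovery lie above them.

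After 4 weeks of bleomycin, Ogn was the 1 SLRP gene called lower than saline (against 7.37% of all genes), and 0 of 10 were called higher (against 10.5%), with a median log2 fold change of 0.26 over the 10 genes and 0 over all genes. Its normalized counts were 658, 792 and 973 (lowest, median and highest) against 583, 1337 and 1637 in saline. All 4-week mice lay within the saline range because of saline mouse 1, whose 583 was the lowest value of its group, while the other saline mice had 1110 or more. The log2 fold change was -0.66 ± 0.18 (adjusted p = 0.00309). Dcn had 12256, 15879 and 23108 normalized counts at 4 weeks against 12401, 25314 and 30022 in saline. Its log2 fold change was -0.55 ± 0.14 (adjusted p = 0.00179), just inside 1.5-fold, and without saline mouse 1, in which Dcn was also lowest, it was -0.66 (adjusted p = 6.73e-05) and was called. Dcn was also called without 4-week mouse 2 (-0.60), 3 (-0.61) or 6 (-0.59).

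Several SLRP genes had higher means at 4 weeks than in saline without passing the test. Bgn had 3198, 6699 and 11816 normalized counts, and 7 of 10 mice exceeded the highest saline mouse. The log2 fold change of Bgn was 0.39 ± 0.22 (adjusted p = 0.154). Fmod (0.60 ± 0.28, adjusted p = 0.0904), Lum (0.27 ± 0.12, adjusted p = 0.0795), Prelp (0.30 ± 0.19) and Aspn (0.26 ± 0.19) were on the same side. Fmod was called without 4-week mouse 1 (0.73, adjusted p = 0.0351). Omd (-0.36 ± 0.18, adjusted p = 0.117) remained on the lower side, Kera was at 0.36 ± 0.23, and Podn was at -0.02 ± 0.16. Both bleomycin groups were compared with the same saline mice. Beside these values, the summed fibroblast markers at 4 weeks were below each saline mouse in 10 of 10 mice, and 5 of 7 markers were called lower at both 2 and 4 weeks, and their part in the SLRP differences was not tested.

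Between 2 and 4 weeks of bleomycin, 3 SLRP genes rose and none fell, against 1.49% of all genes called higher and 0.863% called lower. Fmod rose most, from a median of 342 to 846 normalized counts, with 6 of 10 4-week mice above the highest 2-week mouse (log2 fold change 1.32 ± 0.28, adjusted p = 0.00333). Omd rose from a median of 29.9 to 55.0, with 8 of 10 mice above the highest 2-week mouse (0.92 ± 0.18, adjusted p = 0.00151). Prelp, a heparin-binding SLRP that can link basement membrane to collagen, had a median of 1156 at 2 weeks and 1739 at 4 weeks (0.67 ± 0.19, adjusted p = 0.0289). The Prelp call was lost without 2-week mouse 1, 2, 5, 6 or 7 or 4-week mouse 5 or 10 (0.54 to 0.63, adjusted p = 0.05 to 0.0687). It was also lost with edgeR (0.58, adjusted p = 0.0533), with DESeq2 (0.58, under the fold threshold, adjusted p = 0.03) and with only the 2 groups fitted (0.67, adjusted p = 0.0975). Bgn differed by 0.64 ± 0.22 (adjusted p = 0.069) and was called without 2-week mouse 3, 8, 9 or 10 or 4-week mouse 1 or 3 (0.70 to 0.76). Ogn (0.06 ± 0.18), Dcn (-0.20 ± 0.14) and Lum (-0.03 ± 0.12) stayed close to their 2-week levels.

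At 6 weeks of recovery, 5 SLRP genes were higher than in saline. Aspn, Prelp, Fmod, Omd and Bgn were all called, 5 of 10 genes against 3.33% of all genes, and 0 were called lower, against 1.71%. The median log2 fold change was 0.71 over the 10 genes and 0 over all genes. For each of the 5, the lowest of the 6 recovery mice was above the highest of the 10 saline mice, a separation upward that 1.41% of all genes showed.

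Aspn, which binds calcium and collagen and restrains TGF-beta signalling, had 2017, 2300 and 2877 normalized counts at 6 weeks of recovery against 438, 1152 and 1453 in saline. This was the largest difference among the 10 genes (log2 fold change 1.17 ± 0.22, adjusted p = 0.000539, 2.25-fold). Prelp had 2666, 2833 and 3528 against 824, 1476 and 1925 in saline (1.10 ± 0.22, adjusted p = 0.00093). Fmod had 991, 1102 and 1490 against 202, 658 and 860 (1.08 ± 0.32, adjusted p = 0.0278). Thus the saline and recovery mice were apart in each of these 3 genes.

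Omd, the gene that had fallen furthest at 2 weeks, had 97.0, 133 and 169 normalized counts at 6 weeks of recovery against 52.7, 71.5 and 96.1 in saline (0.88 ± 0.21, adjusted p = 0.00446). The lowest recovery mouse was only just above the highest saline mouse. Bgn had 6768, 9354 and 10668 against 2490, 5427 and 6221 in saline (0.86 ± 0.25, adjusted p = 0.0236). The calls of Bgn and Fmod depended on single mice. Without recovery mouse 3 the adjusted p was 0.0594 for Bgn (0.81) and 0.067 for Fmod (1.02), without recovery mouse 5 it was 0.0722 (0.81) and 0.086 (1.01), and without saline mouse 1 it was 0.06 for Fmod (0.91).

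The other SLRP genes were closer to saline at 6 weeks of recovery. Ogn (0.55 ± 0.21, adjusted p = 0.0826) and Lum (0.39 ± 0.14, adjusted p = 0.0759) were on the higher side without passing. Podn (0.32 ± 0.18), Kera (0.35 ± 0.27) and Dcn (-0.07 ± 0.16) did not pass, and the 95% interval of Dcn, -0.40 to 0.26, did not reach a 1.5-fold difference. Hair follicle markers differed widely within both groups, with sums of 33.8 to 92150 in the 6 recovery mice, and with their level as a covariate Fmod was no longer called (1.02, adjusted p = 0.0672) and 4 of 10 genes were called higher. Other cell types also moved between these groups. Of 4 endothelial markers, 3 were called higher at 6 weeks of recovery (median log2 fold change 0.71), with sums of 2184 to 2892 normalized counts against 1005 to 2029 in saline. All 4 Schwann cell markers were called higher (median 0.95), with sums of 3838 to 6597 against 1402 to 3979. Of 7 fibroblast markers, 1 was called higher and 1 lower, against 3.33% and 1.71% of all genes. At 10 weeks of recovery 1 was again called higher and 1 lower, against 2.05% and 0.998%. Their part in the SLRP differences was not tested.

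**Figure D3:**
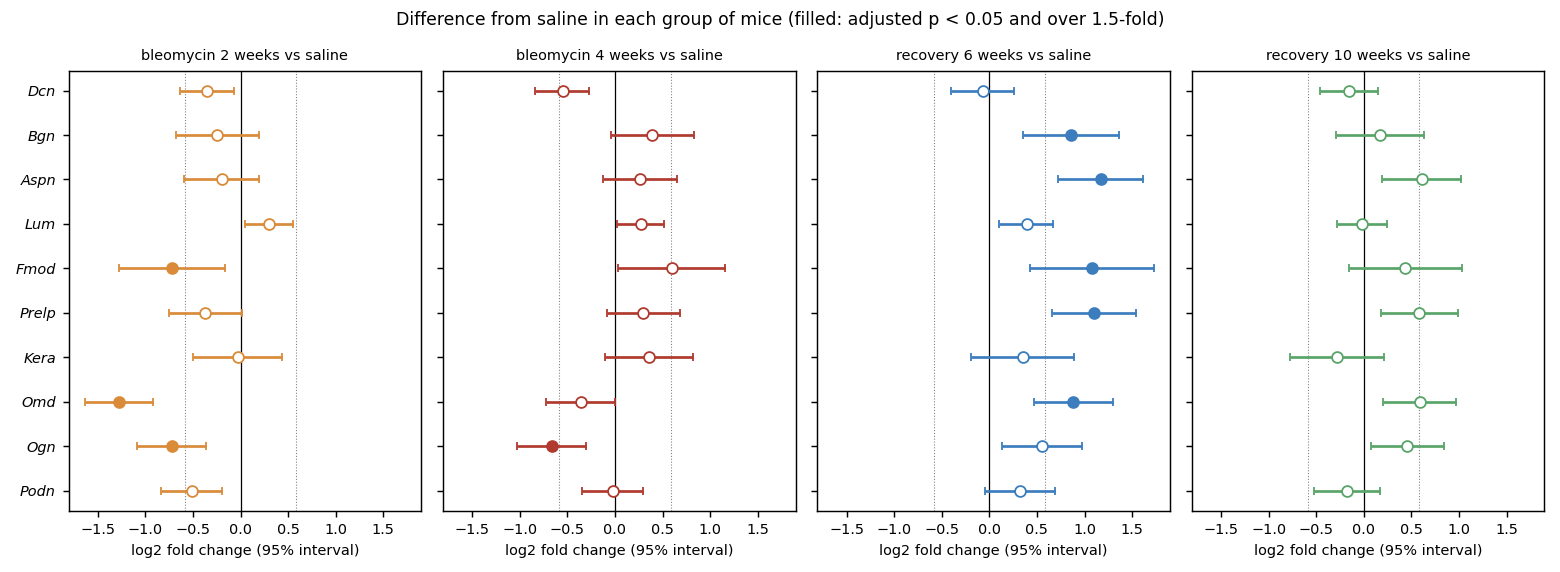
Points give the log2 fold change from saline of each gene (y axis) with its 95% interval (x axis), in one panel per comparison, and dotted lines mark 1.5-fold. Filled points are called: Fmod, Omd and Ogn are lower at 2 weeks, Ogn is lower at 4 weeks, and Bgn, Aspn, Fmod, Prelp and Omd are higher at 6 weeks of recovery.

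Against 4 weeks of bleomycin, 4 SLRP genes were higher at 6 weeks of recovery, while 4.8% of all genes were called higher, and 0 were lower, against 7.14%. Omd (log2 fold change 1.24 ± 0.21, adjusted p = 1.17e-05), Ogn (1.22 ± 0.21, adjusted p = 1.76e-05) and Aspn (0.92 ± 0.22, adjusted p = 0.00192), the 3 neighbours on chromosome 13, had each recovery mouse above each 4-week mouse, as 4.44% of all genes did. Prelp (0.80 ± 0.22, adjusted p = 0.00545) had 5 of 6 mice above the highest 4-week mouse. Dcn passed the p threshold at 0.48 ± 0.16 (adjusted p = 0.0252) without reaching 1.5-fold. Fmod (0.48 ± 0.32, adjusted p = 0.291) and Bgn (0.46 ± 0.25, adjusted p = 0.178) did not pass, and Kera was at 0.00 ± 0.27.

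At 10 weeks of recovery, 0 of 10 SLRP genes were called different from saline by limma, against 2.05% of all genes called higher and 0.998% called lower, and their median log2 fold change was 0.30 against 0 over all genes. At an unadjusted p under 0.05, 4 were higher (Aspn, Prelp, Omd and Ogn), against 10.4% of all genes, and 0 lower, against 8.66%. Of the 10 genes, edgeR called 0 and DESeq2 called 1, Omd (0.59, adjusted p = 0.0106). Aspn had 1154, 1616 and 2077 normalized counts, with 5 of 8 mice above the highest saline mouse (log2 fold change 0.61 ± 0.21, adjusted p = 0.0686). Omd had 82.5, 110 and 126 (0.59 ± 0.19, adjusted p = 0.0555) and Prelp had 1480, 2099 and 2679 (0.58 ± 0.20, adjusted p = 0.0763), each again with 5 of 8 mice above the saline range. Thus 3 of 8 mice at 10 weeks lay within the saline range in each of these genes. Omd was called without saline mouse 9 (0.64) or 10 (0.62) or 2-week mouse 2 (0.59) or 5 (0.59), and Aspn without saline mouse 2 (0.66) or 2-week mouse 2 (0.61). Lum (-0.02 ± 0.13, 95% interval -0.28 to 0.24) and Dcn (-0.16 ± 0.15, -0.46 to 0.15) were within 1.5-fold of saline. Fmod (0.43 ± 0.30), Bgn (0.17 ± 0.23), Podn (-0.18 ± 0.17) and Kera (-0.28 ± 0.25) did not pass.

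Ogn and Omd of the chromosome 13 cluster were also above their bleomycin level at 10 weeks of recovery. Against 4 weeks of bleomycin, 2 SLRP genes were called higher, against 6.73% of all genes, and 1 lower, against 9.1%. Ogn had 1390, 1627 and 2173 normalized counts against 658, 792 and 973 (log2 fold change 1.11 ± 0.19, adjusted p = 1.07e-05), and Omd differed by 0.94 ± 0.19 (adjusted p = 0.000122). In both, each of the 8 recovery mice was above each of the 10 bleomycin mice, as in 2.66% of all genes. Kera, the keratan sulfate SLRP of the cornea, had 34.4, 53.5 and 71.4 normalized counts at 10 weeks of recovery and 64.1, 81.0 and 106 at 4 weeks of bleomycin (-0.64 ± 0.25, adjusted p = 0.041). The fall of Kera was lost without 4-week mouse 1, 2, 5, 6, 8 or 10 or recovery mouse 1, 2, 5, 6 or 8 (-0.56 to -0.65, adjusted p = 0.0502 to 0.0939), and with hair follicle markers as a covariate (-0.27, adjusted p = 0.624).

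From 6 to 10 weeks of recovery, all 10 SLRP genes had a negative difference, but 0 were called by limma, edgeR or DESeq2, against 0.0176% of all genes called higher and 0.0704% called lower. At an unadjusted p under 0.05, 6 of the 10 were lower, against 5.2% of all genes, and 0 higher, against 6.8%. Bgn differed by -0.69 ± 0.26 (adjusted p = 0.314), with 7 of 8 mice at 10 weeks below the lowest mouse at 6 weeks. Aspn (-0.56 ± 0.23, adjusted p = 0.343) and Prelp (-0.52 ± 0.23, adjusted p = 0.362) also had 7 of 8 mice below, and the median over the 10 genes was -0.51 against 0 over all genes. Dcn (-0.09 ± 0.17) and Ogn (-0.10 ± 0.22) were nearest to 0.

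Ratios of genes within a mouse show the shifts in composition without the scaling between libraries. The log2 ratio of Bgn to Dcn, both carriers of dermatan sulfate, was -2.26 ± 0.57 in saline and -1.32 ± 0.82 at 4 weeks of bleomycin (SD, n = 10 each). The difference of 0.95 had p = 0.00825 in a 2-sided permutation test, or 0.0371 after Benjamini-Hochberg adjustment over 18 tests of 3 ratios, and 6 of 10 mice were above the saline range. At 6 weeks of recovery the ratio of Bgn to Dcn was -1.34 ± 0.38 (n = 6), 0.93 above saline (exact permutation p = 0.00287, adjusted p = 0.0258), with 4 of 6 mice above the saline range. At 2 weeks the ratio was -2.16 ± 0.79 (difference 0.11, adjusted permutation p = 0.778), and at 10 weeks of recovery -1.94 ± 0.43 (difference 0.33, exact permutation, adjusted p = 0.309). Thus the ratio of biglycan to decorin was above saline at 4 weeks of bleomycin and 6 weeks of recovery, and these groups were compared with the same saline mice.

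The log2 ratio of Fmod to Lum, whose proteins share a collagen site, was -3.13 ± 0.64 in saline and -4.15 ± 0.84 at 2 weeks, with 5 of 10 mice below the saline range. The difference of -1.02 had an adjusted permutation p = 0.0371, and 0.0594 when medians were compared (-1.04). At 4 weeks (difference 0.32, adjusted permutation p = 0.401), 6 weeks of recovery (0.69, exact permutation, adjusted p = 0.0566) and 10 weeks of recovery (0.45, exact permutation, adjusted p = 0.279) the ratio did not pass. The mice below were 2-week mice 1, 2, 5, 6 and 7, and the others, at -3.57 to -3.09, lay within the saline range. Fmod was thus lower relative to Lum in part of the 2-week group. Whether the 2-week difference differed from the later ones was not tested.

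The log2 ratio of Dcn to Col1a1, the main fibrillar collagen chain of dermis, was -0.37 ± 0.56 in saline, -0.01 ± 0.57 at 2 weeks and -1.22 ± 0.78 at 4 weeks. The difference at 4 weeks was -0.85 (adjusted permutation p = 0.0459), with 6 of 10 mice below the saline range. In recovery the ratio was -0.96 ± 0.40 at 6 weeks (difference -0.60, exact permutation, adjusted p = 0.0941) and 0.20 ± 0.51 at 10 weeks (0.57, exact permutation, adjusted p = 0.0941). Between 4 weeks of bleomycin and 10 weeks of recovery the ratio of Dcn to Col1a1 rose by 1.42 (exact permutation p = 0.0008, adjusted p = 0.0144), and 2 of 8 recovery mice were above the highest bleomycin mouse. The other differences of ratios between recovery and 4 weeks of bleomycin did not pass.

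**Figure D4:**
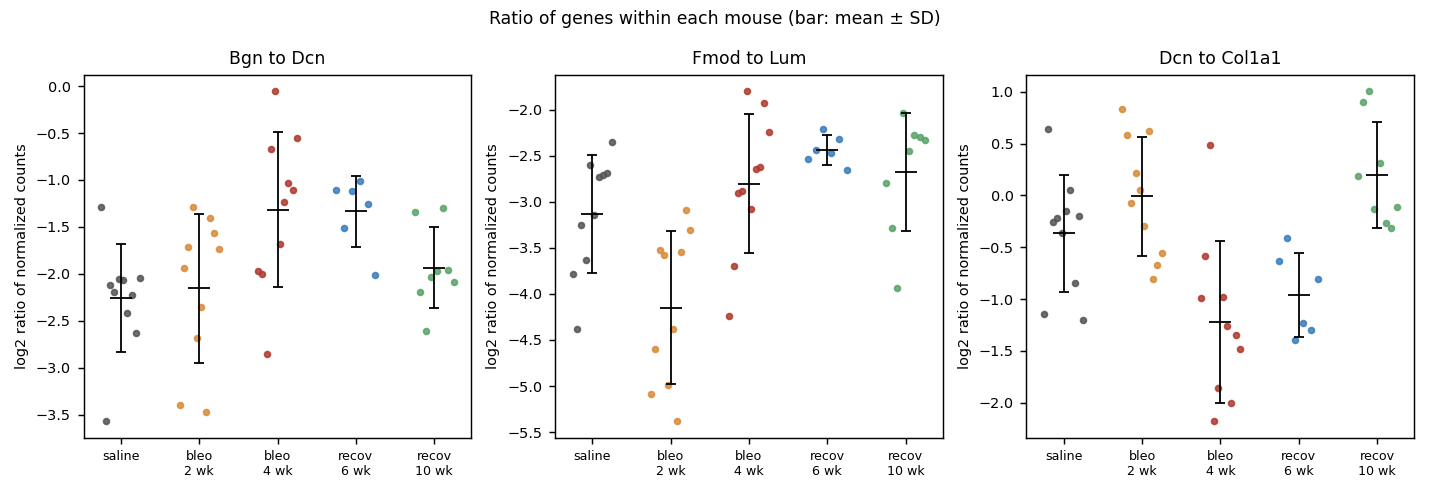
Each point is the log2 ratio of the normalized counts of a gene pair in one mouse (y axis) by group (x axis), with the mean and SD as a bar. Bgn to Dcn is raised at 4 weeks of bleomycin and 6 weeks of recovery. By mean, Fmod to Lum is lowest at 2 weeks and Dcn to Col1a1 is lowest at 4 weeks.

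Within groups, Bgn, Prelp, Fmod and Podn varied together from mouse to mouse, as did Dcn with Lum and Ogn with Aspn. With the group means taken off, Pearson's r over 44 mice was 0.89 for Bgn with Prelp (Spearman's rho = 0.85) and 0.89 for Fmod with Prelp (rho = 0.88). Podn followed Fmod (r = 0.83, rho = 0.79) and Prelp (r = 0.78, rho = 0.77). Dcn followed Lum (r = 0.80, rho = 0.75), and Ogn followed Aspn (r = 0.85, rho = 0.73). Lum with Aspn was at 0.71 (rho = 0.61), Lum with Ogn at 0.69 (rho = 0.54), Dcn with Ogn at 0.66 (rho = 0.54) and Dcn with Aspn at 0.59 (rho = 0.46). Bgn, Prelp and Fmod were less tied to Dcn and Lum, with r from -0.22 for Dcn with Bgn (rho = -0.20) to 0.21 for Dcn with Fmod (rho = 0.09), whereas Podn with Dcn was at 0.51 (rho = 0.41). The points share the library and its scaling, so these values are descriptions with no test, and over the 45 pairs r ran from -0.22 to 0.89 with a median of 0.34. Without saline mouse 1 and 2-week mouse 2, over 42 mice, r ran from -0.31 to 0.92 with a median of 0.01, and the pairs with r over 0.7 went from 9 to 5. Bgn with Prelp was at 0.92, Fmod with Prelp at 0.89 and Dcn with Lum at 0.70, whereas Ogn with Aspn was at 0.61, and Aspn with Kera dropped from 0.71 to 0.19. Over the same 42 mice, Lum with Aspn fell to 0.50, Lum with Ogn to 0.47, Dcn with Ogn to 0.48 and Dcn with Aspn to 0.33. Omd with Ogn was at 0.65 over 44 mice and 0.60 over 42, and Omd with Aspn was at 0.62 and 0.56.

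**Figure D5:**
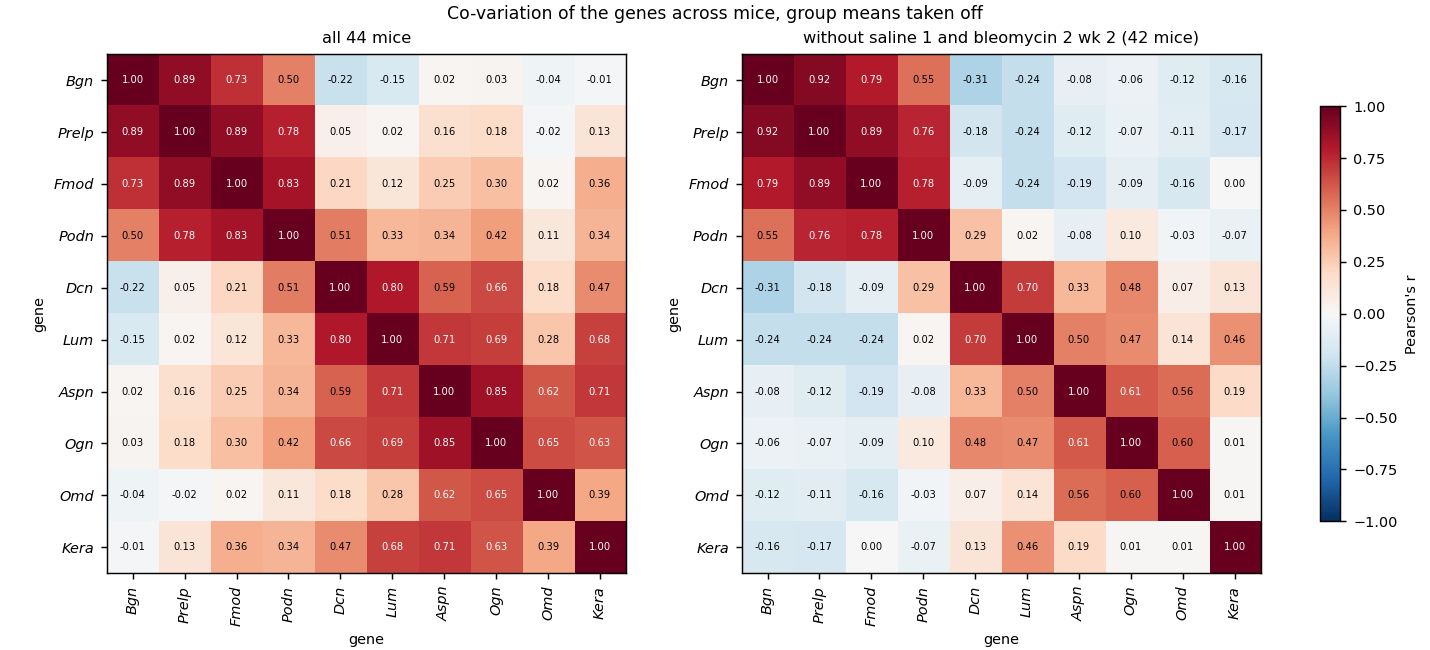
Cells give Pearson's r between pairs of the 10 genes (both axes) over mice with group means taken off, for all 44 mice (left) and for 42 mice (right, without saline mouse 1 and 2-week mouse 2). Bgn, Prelp, Fmod and Podn form a block at the top left with r of 0.50 to 0.89, which is 0.55 to 0.92 over 42 mice.

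Outside the family, the 2 genes that varied most like each SLRP gene from mouse to mouse were taken. For Fmod and Prelp the most alike was Pdgfrb, the PDGF receptor of fibroblasts and pericytes (r = 0.92 and 0.91, rho = 0.92 for both, 44 mice). Second came Aebp1 (r = 0.91, rho = 0.88) for Fmod and Col6a1 (r = 0.91, rho = 0.89) for Prelp. Bgn was most like Map6 (r = 0.91, rho = 0.90) and Col6a1 (r = 0.89, rho = 0.87), and Podn was most like Tnxb (r = 0.90, rho = 0.85) and Aebp1 (r = 0.89, rho = 0.85). Dcn was most like Cd34, a surface protein of stromal and endothelial cells (r = 0.88, rho = 0.86), and Ptgfr (r = 0.86, rho = 0.79). Lum was most like Aspa (r = 0.80, rho = 0.73) and Esr1, the estrogen receptor alpha gene (r = 0.79, rho = 0.72). Aspn was most like Serinc1 (r = 0.87, rho = 0.66) and Itgbl1 (r = 0.86, rho = 0.85), and Ogn was most like Car3 (r = 0.85, rho = 0.65) and Angptl1 (r = 0.84, rho = 0.71). By r over 44 mice Omd was least tied to any gene, with Itgbl1 (r = 0.68, rho = 0.56) and Epha3 (r = 0.68, rho = 0.60) first. Over 42 mice, without saline mouse 1 and 2-week mouse 2, these were at 0.54 and 0.49, above the values of Kera. Kera was most like the mitochondrial mt-Atp8 (r = 0.84, rho = 0.51) and mt-Co1 (r = 0.83, rho = 0.59), at 0.37 and 0.46 over 42 mice without saline mouse 1 and 2-week mouse 2. The same omission lowered Serinc1 with Aspn to 0.58 and Car3 with Ogn to 0.62, while Pdgfrb with Fmod stayed at 0.91.

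The summed fibroblast markers, which include Pdgfrb, varied with Fmod (r = 0.79, rho = 0.69), Prelp (r = 0.79, rho = 0.71), Podn (r = 0.78, rho = 0.66) and Bgn (r = 0.66, rho = 0.62) and less with Dcn (r = 0.46, rho = 0.41), Lum (r = 0.32, rho = 0.28) and Omd (r = -0.12, rho = -0.10). Summed endothelial markers varied with Prelp (r = 0.85, rho = 0.81), Fmod (r = 0.75, rho = 0.74), Podn (r = 0.73, rho = 0.69) and Bgn (r = 0.70, rho = 0.66), and summed Schwann cell markers with Podn (r = 0.70, rho = 0.61) and Fmod (r = 0.61, rho = 0.55). Summed tendon markers varied with Bgn (r = 0.60, rho = 0.61), Fmod (r = 0.55, rho = 0.47) and Prelp (r = 0.55, rho = 0.54). Skeletal muscle markers varied with Podn (r = 0.61, rho = 0.56) and Ogn (r = 0.56, rho = 0.43). Adipocyte markers varied with Ogn (r = 0.63, rho = 0.38) and Dcn (r = 0.57, rho = 0.46). Summed hair follicle markers ran against Lum (r = -0.42, rho = -0.50). Keratinocyte markers ran against Bgn (r = -0.49, rho = -0.52), and the low cartilage and bone markers against Dcn (r = -0.50, rho = -0.56). The recovered read total was not tied to any of the 10 genes (r from -0.11 to 0.17).

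Of 8 further genes of the family, Ecm2, Optc, Chadl, Nyx, Tsku and Podnl1 were tested, and Epyc and Chad were too low, with means of 1.63 and 0.776 normalized counts over all mice. Ecm2, which lies just before Aspn on chromosome 13, fell at 2 weeks (log2 fold change -0.92 ± 0.19, adjusted p = 9.06e-05) and at 4 weeks (-0.98 ± 0.19, adjusted p = 3.71e-05), from 1017 ± 244 normalized counts in saline to 564 ± 209 and 511 ± 126 (SD, n = 10). Podnl1, a podocan-like gene, rose at 2 weeks (1.13 ± 0.31, adjusted p = 0.00378) and 4 weeks (0.88 ± 0.31, adjusted p = 0.0236), from 5.42 to 14.0 and 10.8 normalized counts. Chadl rose at 6 weeks of recovery (0.67 ± 0.22, adjusted p = 0.0399), from 18.8 to 31.1. Optc, Nyx and Tsku were not called against saline at any time.

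Genes that build or cut SLRP proteins and their chains were read beside the 10 genes. Of 26 tested glycosaminoglycan enzymes, B3gnt7, which extends keratan sulfate chains, rose at 2 weeks (1.06 ± 0.20), 4 weeks (1.39 ± 0.20, adjusted p = 2.08e-07) and 6 weeks of recovery (1.03 ± 0.23). Chpf, a chondroitin polymerizing factor, fell at 2 weeks (-0.93 ± 0.16, adjusted p = 5.59e-06) and rose at 6 weeks of recovery (0.60 ± 0.18, adjusted p = 0.0284). No other of the 26 was called against saline. Of 13 proteases and processing proteins, 3 were higher (against 9.3% of all genes) and 2 lower (against 7.43%) at 2 weeks. At 4 weeks 3 were higher (against 10.5%) and 0 lower (against 7.37%). Their median log2 fold change was -0.12 at 2 weeks and 0.27 at 4 weeks, against 0 over all genes. Gzmb, granzyme B, which can cleave decorin, rose most (3.02 ± 0.33 at 2 weeks, adjusted p = 3.83e-10, and 2.41 ± 0.33 at 4 weeks). Mmp13 (2.16 ± 0.48) and Mmp3 (1.27 ± 0.15) also rose at 2 weeks, and Mmp2 rose at 6 weeks of recovery (0.94 ± 0.17, adjusted p = 0.000245).

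Of 13 collagen and fibril genes, 0 were higher (against 9.3% of all genes) and 9 lower (against 7.43%) at 2 weeks. Their median log2 fold change was -0.92, against 0 over all genes and -0.36 over the 10 SLRP genes. At 4 weeks 2 were higher (against 10.5%) and 3 lower (against 7.37%), and 2 were higher at 6 weeks of recovery (against 3.33%). Dpt, dermatopontin, which binds decorin, fell at 2 weeks (-1.50 ± 0.13, adjusted p = 2.34e-12) and 4 weeks (-1.46 ± 0.13). Tnxb, tenascin X, fell at both times (-1.36 ± 0.18 and -1.12 ± 0.18). Col14a1, a fibril-associated collagen, fell at 2 weeks (-1.38 ± 0.21) and was higher than saline at 6 weeks of recovery (1.05 ± 0.24, adjusted p = 0.00397) and 10 weeks (0.75 ± 0.22, adjusted p = 0.0348). Col12a1 rose at 4 weeks (1.70 ± 0.36, adjusted p = 0.000194).

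Of 11 receptors and growth factors that SLRP proteins are known to bind, 3 were higher at 2 weeks, against 9.3% of all genes. At 4 weeks 4 were higher (against 10.5%), at 6 weeks of recovery 2 (against 3.33%) and at 10 weeks 1 (against 2.05%). At each of these times 0 were lower, against 7.43%, 7.37%, 1.71% and 0.998% of all genes. Tlr2 (1.20 ± 0.16 at 2 weeks and 1.31 ± 0.16 at 4 weeks) and Tlr4 (0.97 ± 0.13 and 0.84 ± 0.13), the receptors of soluble biglycan, rose in both bleomycin groups. Ccn2, a matrix growth factor bound by decorin, rose at 4 weeks (1.16 ± 0.14) and remained higher at 6 weeks (1.31 ± 0.16) and 10 weeks of recovery (0.94 ± 0.15, adjusted p = 8.23e-05). Ccn4, which binds decorin and biglycan, rose at 4 weeks (0.86 ± 0.20, adjusted p = 0.000622).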

How the data were processed

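Total RNA of mouse back skin was made into stranded mRNA libraries and sequenced as paired reads. Per the study's methods and the submitters' processing notes, the authors aligned reads to mm10 with STAR 2.4.0 and normalized the counts with DESeq2 1.12.3. The counting tool and annotation are not given in the sources used here. The deposited values are a signal, normalized counts per Ensembl gene, of which 42929 of 43411 (98.9%) were matched to a symbol. Whole reads were recovered from them (100.0% within 0.02 of a whole number), with 8509094 to 15285577 reads per mouse, so that 3 reads were worth 2.19 to 3.90 normalized counts. Floors cover counting error only, and the 95% intervals of fold changes come from the limma fit over mice.

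Log2(normalized count + 1) of the 17037 genes with a mean above 3 was fitted by limma 3.58.1 with trend over all 44 mice and 5 groups, with Benjamini-Hochberg adjustment over all genes. A call needed an adjusted p below 0.05 and a fold change above 1.5, as in the study's methods, on the log2(value + 1) scale. Ratios were compared by 2-sided permutation tests, exact where a group had under 10 mice and otherwise with 100000 resamples, adjusted over 18 tests. Levels per kb used the summed exon length of GENCODE vM21. Alternatives were a pseudocount of 0.1, other filters, quantile and TMM scaling, edgeR 4.0.16 and DESeq2 1.42.0 on the recovered reads, 2-group fits, a replicate block, other thresholds and leaving out mice, and, added after seeing the data, each mouse left out in turn and hair follicle markers as a covariate. The mice of a group are separate animals. Replicate numbers did not pair mice: over 78 same-number pairs the mean correlation of deviations was -0.002. No 2 libraries of a group agreed within sampling noise, with a chi-square per degree of freedom of at least 5.32 over 178 pairs.

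The genes and lists were chosen with earlier results of these data known. Named were the 10 genes, the 8 further family members, per further list at most 4 called genes with the largest fold change against saline, and the 2 genes most correlated with each of the 10. Promoters came from RefSeq. Python 3.11.15 with numpy 2.4.6, pandas 2.3.3 and scipy 1.17.1 was used.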

Additional observations from a re-analysis of the deposited data

Results flagged for a closer look

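Among 65 sets of 6 to 10 mice (10 genes and 3 ratios in 5 groups), a mouse stood far from the rest of its group in 6, all of them low, where chance flags about 1 in 20 such sets. Saline mouse 1 was low for Dcn (12401.3 normalized counts, the others 22592 to 30022), Aspn (437.6, the others 809 to 1453) and Ogn (583.0, the others 1110 to 1637). Saline mouse 2 was low for Bgn (2490.5, the others 4757 to 6221). In the 2-week bleomycin group, mouse 2 was low for Aspn (270.5, the others 723 to 1254) and Kera (11.7, the others 55.0 to 96.2). Saline mouse 1 and 2-week mouse 2 were also the libraries least correlated with their own groups.

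The difference from saline differed between time points, by the direct contrast in limma, for 11 values. From 2 to 4 weeks of bleomycin it rose for Fmod (log2 difference 1.32), Omd (0.92) and Prelp (0.67). Between 4 weeks of bleomycin and recovery for 6 weeks it rose for Omd (1.24), Ogn (1.22), Aspn (0.92) and Prelp (0.80). Between 4 weeks of bleomycin and recovery for 10 weeks it rose for Ogn (1.11) and Omd (0.94), differed by -0.64 for Kera, and, by an exact permutation test, rose by 1.42 for the log2 ratio of Dcn to Col1a1.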

How the results depend on the processing

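Of 1040 values of single genes over 13 alternatives, 1007 kept their status as called or not, 21 were called only under the alternative and 12 lost their call. None changed sign with a call, and the sign of values never called was not compared. No scaling moved the median of all genes by over 0.1. At 2 weeks of bleomycin against saline 3 genes were called, and 5 with no fold threshold, where 35.6% of all genes were called in place of 9.3% higher and 7.43% lower. The Fmod call was lost with edgeR, DESeq2, and in limma without a filter on low values (adjusted p = 0.0621) or with only the 2 groups fitted (0.0983). With hair follicle markers as a covariate, Fmod was not called (limma adjusted p = 0.163) and Podn was (-0.85, adjusted p = 0.0142). At 4 weeks 1 was called, and 2 without saline mouse 1 and 2-week mouse 2, with a log2 threshold of 0.5, with no fold threshold (36.6% of all genes), or with hair follicle markers as a covariate. At 10 weeks of recovery against saline 0 were called, and 1 with quantile scaling, DESeq2, only the 2 groups fitted, or without the same 2 mice. From 6 to 10 weeks of recovery 0 were called, and 1, Bgn, with only the 2 groups fitted. The ratio of Fmod to Lum at 2 weeks was -1.04 as a difference of medians (adjusted permutation p = 0.0594).

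With the replicate block, although numbers did not pair mice (6 of 44 mice correlated best with their own number), 2 genes were called at 4 weeks of bleomycin and 2 at 10 weeks of recovery against saline. The block moved no other count of called genes by over 1.5 times.

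With each mouse left out in turn, the genes called ranged from 1 to 4 at 2 weeks, 1 to 2 at 4 weeks, 3 to 5 at 6 weeks of recovery and 0 to 2 at 10 weeks of recovery, all against saline. They ranged from 2 to 4 for 4 against 2 weeks, 4 to 4 and 2 to 3 for 6 and 10 weeks of recovery against 4 weeks of bleomycin, and 0 to 0 for 10 against 6 weeks of recovery. Whole skin limits the reading of all values, and the causes of these changes were not tested.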
